A study of Mus musculus with 12 samples.

Results

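The B, myeloid and erythroid lineage markers are 32 genes whose transcripts are typical of blood cells other than T cells, and their levels were followed in RNA-seq libraries of mouse regulatory T cells (Tregs). They were picked by name: 13 genes of the B cell receptor and B cell programme, 1 antibody joining chain gene, 4 genes of MHC class II antigen presentation, 9 myeloid genes and 5 erythroid genes. All 32 were found among the 49671 genes of the count tables. The study set 4 groups of 3 libraries beside each other, all from C57BL/6 mice of 8 weeks: nTreg mutant and nTreg WT are sorted Tregs isolated fresh from Gclc mutant and WT mice, and iTreg mutant and iTreg WT are Tregs that were differentiated in culture, starting with naive CD4+ cells of Gclc mutant and WT mice. Gclc encodes the catalytic subunit of the enzyme that starts glutathione synthesis. The tissue, the sort gate, the promoter or Cre behind the mutation, and whether each library stands for its own animal, are not given in the labels. The spread behind every p-value is that between these libraries and may be technical.

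Background on these genes is textbook knowledge. B cells carry a membrane antibody that signals through the CD79 chains, and their identity is kept by the transcription factors Pax5 and Ebf1. MHC class II molecules display peptides to CD4+ T cells on B cells, dendritic cells and macrophages, and in the mouse T cells express little of them. Red blood cell precursors devote most of their messenger RNA to the alpha and beta globins and make haem through Alas2. The question put to these genes is how much RNA of other blood cells the sorted nTregs hold beside the cultured iTregs. In bulk libraries, fewer cells of a type and less RNA per cell cannot be told apart.

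The libraries held 28707579 to 39886130 counts, and values below are CPM, that is counts brought to a common library size by scaling. Libraries of the same group differed by more than counting noise. Gclc was at 45.8, 41.7 and 43.2 CPM in nTreg mutant libraries and at 78.7, 79.0 and 70.8 CPM in nTreg WT libraries, and at 18.8, 21.0 and 19.0 CPM in iTreg mutant libraries against 56.5, 53.2 and 51.9 CPM in iTreg WT libraries, as labelled. Cd4 lay between 399 and 520 CPM and Foxp3, the Treg master regulator, between 75.5 and 610 CPM over the 12 libraries. Transcripts of both were thus present in each library, but bulk levels do not give the share of Tregs. Foxp3 was lower in every nTreg mutant library than in every nTreg WT library, at the values given below. The library of nTreg mutant replicate 1 stood apart: the summed level of 10 CD8 T and NK cell genes was 990 CPM in it, against 157 and 139 CPM in nTreg mutant replicates 2 and 4 and 63.1 to 70.3 CPM in nTreg WT. Results of the nTreg mutants are therefore also given without it where it moves them.

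Taken over all libraries, the 32 genes separated the sorted cells from the cultured cells. Their summed level was 2203.9, 3434.1 and 2182.2 CPM in nTreg mutant replicates 1, 2 and 4 and 2614.4, 2348.9 and 2627.5 CPM in nTreg WT replicates 1, 2 and 3. In culture it was 119, 95.7 and 131 CPM in iTreg mutant replicates 1, 2 and 4 and 93.6, 97.4 and 119 CPM in iTreg WT replicates 1, 2 and 3. Every nTreg library was above every iTreg library. As a share of all counts, the markers made up 0.226% to 0.377% of nTreg libraries and 0.00887% to 0.0125% of iTreg libraries. Of the 32 genes, 30 reached 1 CPM in every nTreg library, while 24 were below 1 CPM in every iTreg library and 4 (Cd22, Fcrla, Iglc2 and Alas2) had no count in any of the 6.

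**Figure D1:**
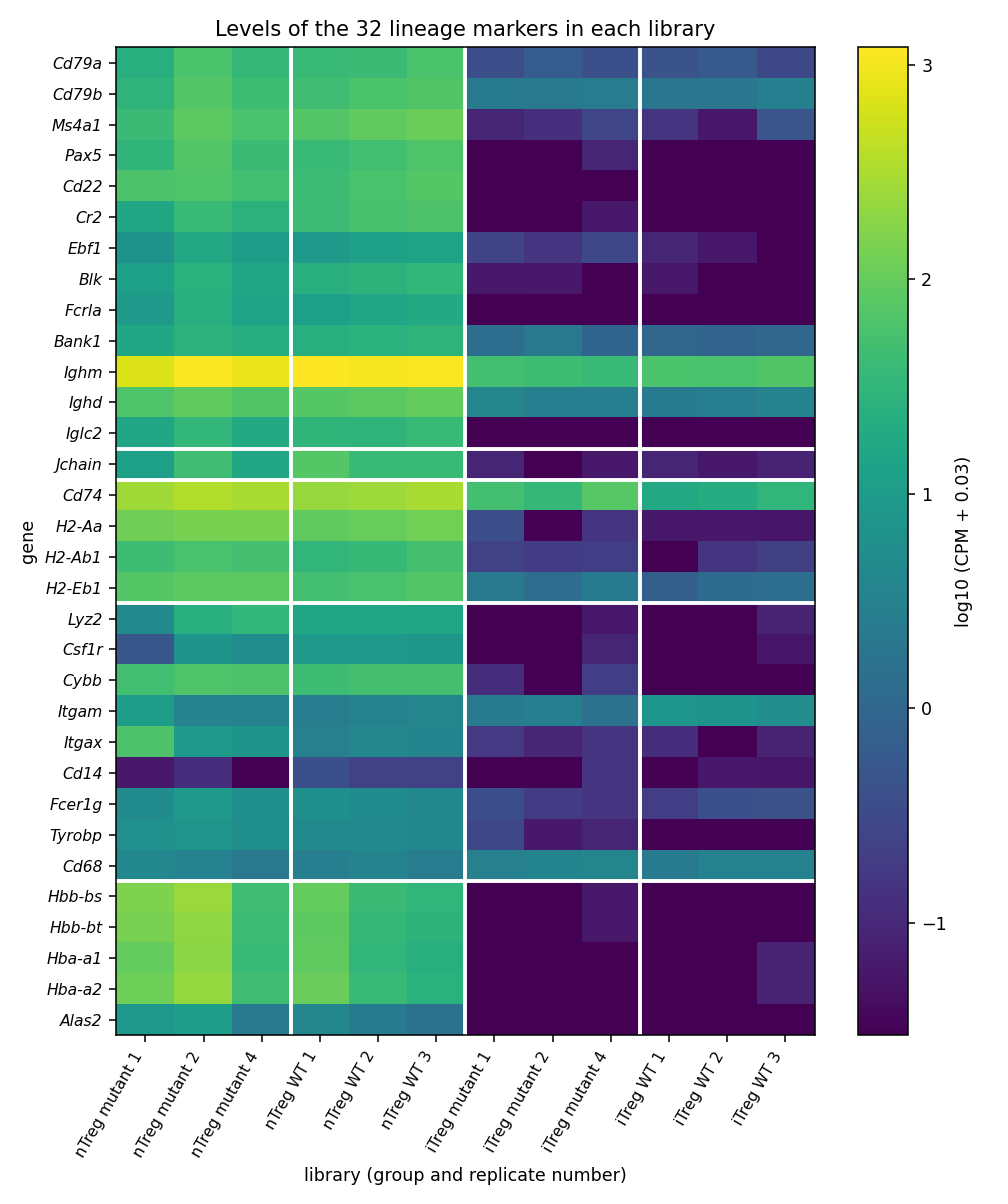
Heat map of the 32 genes (rows, by role) in the 12 libraries (columns), coloured by log10 of CPM plus 0.03. The 6 nTreg columns are bright for nearly all rows, while in the 6 iTreg columns Ighm and Cd74 stay bright, Itgam, Cd68, Cd79b and Ighd are intermediate and the erythroid rows are dark.

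Across all genes, nTregs and iTregs differed widely: in edgeR's quasi-likelihood test with Benjamini-Hochberg adjustment, 35.0% of 17977 tested genes were higher in nTreg mutant than in iTreg mutant and 33.2% lower, and 35.7% were higher and 33.7% lower in nTreg WT than in iTreg WT. Of the 31 markers that passed the filter on low counts, 30 were higher in nTreg mutant than in iTreg mutant and none was lower. For the WT pair 29 were higher and 1 was lower. The median fitted log2 fold change was 8.80 over the markers in the mutants and 9.46 in WT, against 0.02 over all tested genes in both; with the markers that had at most 3 iTreg counts set to their counting bound, the medians were 8.10 and 8.72. Many of the markers passed the filter through the nTreg libraries alone, so these counts and medians describe the contrast and are no support for it. Cd14, the co-receptor for bacterial lipopolysaccharide, was the member left out by the filter.

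**Figure D2:**
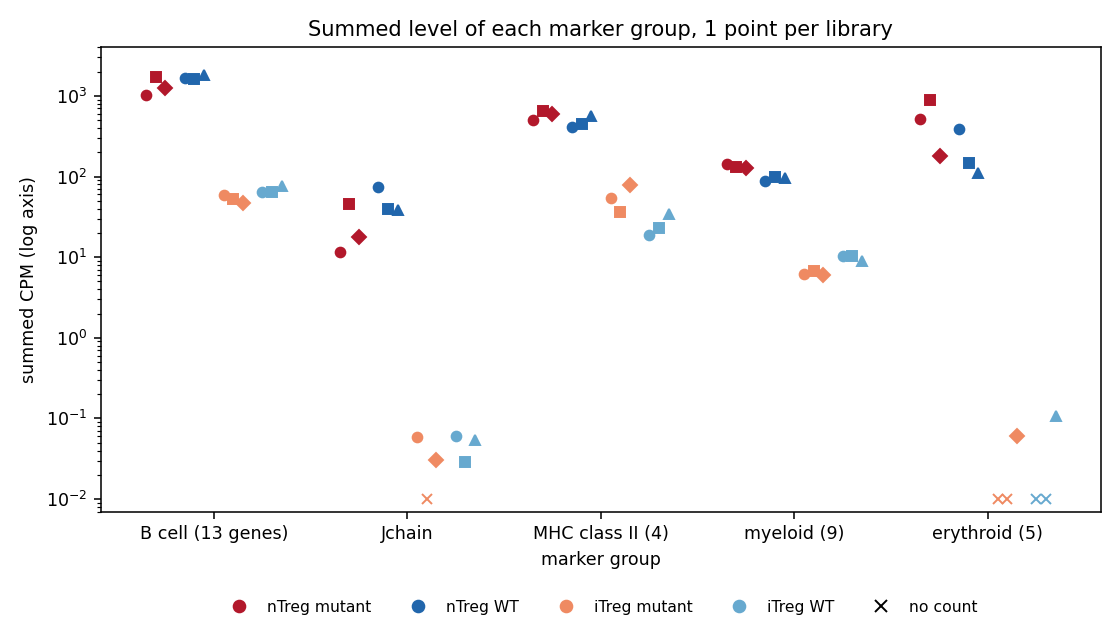
Summed CPM (log axis) of the B cell, joining chain, MHC class II, myeloid and erythroid markers, with 1 point per library, marker shape giving the replicate number and crosses at the bottom marking libraries with no count. The nTreg points lie above the iTreg points in each of the 5 groups of genes, with the erythroid sum ranging from 111 to 879 CPM in nTregs and from 0 to 0.108 CPM in iTregs.

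The B cell genes were present together in every nTreg library and nearly or wholly absent from the cultures, with the exception of the heavy chain genes and a few others. The transcription factor Pax5 was at 31.3, 70.4 and 41.1 CPM in nTreg mutant replicates 1, 2 and 4 and at 38.3, 49.0 and 64.9 CPM in nTreg WT replicates 1, 2 and 3; in iTregs it had counts in 1 library alone, 0.0607 CPM in iTreg mutant replicate 4. Cd79a, a signalling chain of the B cell receptor, was at 24.1, 59.5 and 34.3 CPM in nTreg mutant and 38.1, 41.0 and 59.5 CPM in nTreg WT, against 0.353, 0.628 and 0.364 CPM in iTreg mutant and 0.419, 0.573 and 0.270 CPM in iTreg WT. No nTreg library came near any iTreg library for either gene. Ms4a1, which encodes the surface protein CD20, was at 41.8, 82.8 and 56.6 CPM in nTreg mutant and 71.7, 90.6 and 110 CPM in nTreg WT, against 0.0588 to 0.243 CPM in iTreg mutant and 0.0286 to 0.459 CPM in iTreg WT.

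Folds over the cultures were large but, for the genes with few or no iTreg counts, poorly bounded. Cd79a was 93.2-fold higher in nTreg mutant than in iTreg mutant and 111-fold higher in nTreg WT than in iTreg WT (log2 fold changes 6.45 ± 0.41 and 6.77 ± 0.41, SE; adjusted p = 5.164e-08 and 3.588e-08). Ms4a1 was 478-fold and 438-fold higher in the same pairs (log2 8.80 ± 0.48 and 8.74 ± 0.44; adjusted p = 1.33e-08 and 9.036e-09). Cd22, an inhibitory co-receptor with no iTreg count, was at least 1950-fold higher in nTreg mutant and at least 2037.5-fold higher in nTreg WT, taking 3 counts over the group as the limit a count of 0 allows. Fcrla, an Fc receptor-like protein of B cells, ran from 8.82 to 23.5 CPM in nTregs and Iglc2, a lambda light chain constant gene that shares reads with near-identical neighbours, from 15.8 to 38.8 CPM, and neither had an iTreg count. For Fcrla the bounds were 536-fold and 558-fold, and for Iglc2 780-fold and 1174.9-fold. Such bounds cover counting error only. Pax5 was 2473.2-fold higher in nTreg mutant than in iTreg mutant, with a 95% counting interval of 684 to 20427.2, and at least 1795.9-fold higher in nTreg WT. Ebf1, which acts with Pax5, was at 6.54, 18.3 and 10.9 CPM in nTreg mutant and 9.23, 12.8 and 13.9 CPM in nTreg WT, against 0.126 to 0.273 CPM in iTreg mutant and 0 to 0.0599 CPM in iTreg WT. The 13 B cell genes were all called higher in nTregs in both genotypes, beside 35.0% and 35.7% of all tested genes. Of the 13, 9 were below 1 CPM in every iTreg library. For markers that passed the filter through the nTreg libraries alone, the p-values and calls describe the contrast and are no support for it.

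Some B cell receptor transcripts were still measurable in the cultures, and not in the proportions of the sorted cells. Ighm, the mu heavy chain constant gene, was at 695, 1129.5 and 866 CPM in nTreg mutant and 1203.8, 1060.5 and 1150.2 CPM in nTreg WT, against 50.7, 44.8 and 39.4 CPM in iTreg mutant and 58.6, 58.1 and 67.6 CPM in iTreg WT. That made it 20.5-fold higher in nTreg mutant and 18.5-fold higher in nTreg WT (log2 4.32 ± 0.17 and 4.21 ± 0.17; adjusted p = 1.023e-09 and 1.374e-09), a much smaller fold than that of Cd79a. Per count of Cd79a, the nTreg mutant and nTreg WT libraries held 22.2 and 24.4 counts of Ighm, and the iTreg mutant and iTreg WT libraries 101 and 147. Cd79b, the partner chain of Cd79a, was likewise at 1.22 and 1.24 counts per Cd79a count in nTreg mutant and nTreg WT and at 5.36 in both iTreg groups. It lay at 29.3 to 70.4 CPM in nTregs and 1.86 to 2.92 CPM in iTregs. Ighd, the delta heavy chain constant gene, was at 65.6, 89.5 and 68.8 CPM in nTreg mutant against 3.71, 2.82 and 2.82 CPM in iTreg mutant, and Bank1, a B cell adaptor, at 17.0, 27.1 and 22.4 CPM against 1.35, 2.07 and 0.880 CPM. These ratios were chosen after the values were seen, and no test was made of them.

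On a per-length scale Ighm was the most abundant of the 32 markers in nTregs, with a mean of 476 CPM per kilobase in nTreg mutant and 603 CPM per kilobase in nTreg WT. Cd74 followed at 223 and 191 CPM per kilobase, Hbb-bs at 193 and 75.2, and Hba-a2 at 193 and 85.2. Cd79b was at 33.6 and 40.3 and Cd79a at 27 and 31.7 CPM per kilobase. Some other B cell genes, though not all, reached lower levels on this scale, with Pax5 at 5.38 and 5.73, Cr2 at 3.36 and 6.58 and Ebf1 at 1.22 and 1.23 CPM per kilobase. The myeloid genes Lyz2, at 16.4 and 12.7, and Cybb, at 10.2 and 8.65, lay above these B cell genes, and Csf1r was at 0.882 and 1.77 CPM per kilobase in nTreg mutant and nTreg WT.

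Between the genotypes, Cr2 was the B cell marker that differed in nTregs. Cr2 (ENSMUSG00000026616, chr1:195136811-195176716 on the minus strand of GRCm38) encodes CD21, a complement receptor that lowers the threshold of B cell activation. It was at 16.5, 38.4 and 26.9 CPM in nTreg mutant replicates 1, 2 and 4 and at 42.3, 54.8 and 62.8 CPM in nTreg WT replicates 1, 2 and 3. The groups did not overlap, and Cr2 was lower in nTreg mutant by a log2 fold change of -0.96 ± 0.25 (SE; adjusted p = 0.01413). Without nTreg mutant replicate 1 the log2 fold change was -0.67 (adjusted p = 0.0186), and without replicate 2 it was -1.32 (adjusted p = 0.00215). Among all 17977 tested genes, 34.9% passed the same test, 19.3% as higher and 15.6% as lower in nTreg mutant. The other 12 B cell genes did not pass, and the median log2 fold change over the 13 was -0.26, against 0.04 over all tested genes. Blk, a Src-family kinase of B cells, lay just outside the threshold at 11.9, 26.2 and 15.3 CPM in nTreg mutant and 22.8, 28.5 and 33.0 CPM in nTreg WT (log2 -0.66 ± 0.24, adjusted p = 0.05002), and its groups overlapped. Ms4a1 (log2 -0.59 ± 0.26, adjusted p = 0.09215) and Ighm (-0.34 ± 0.15, adjusted p = 0.08573) did not pass either.

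**Figure D3:**
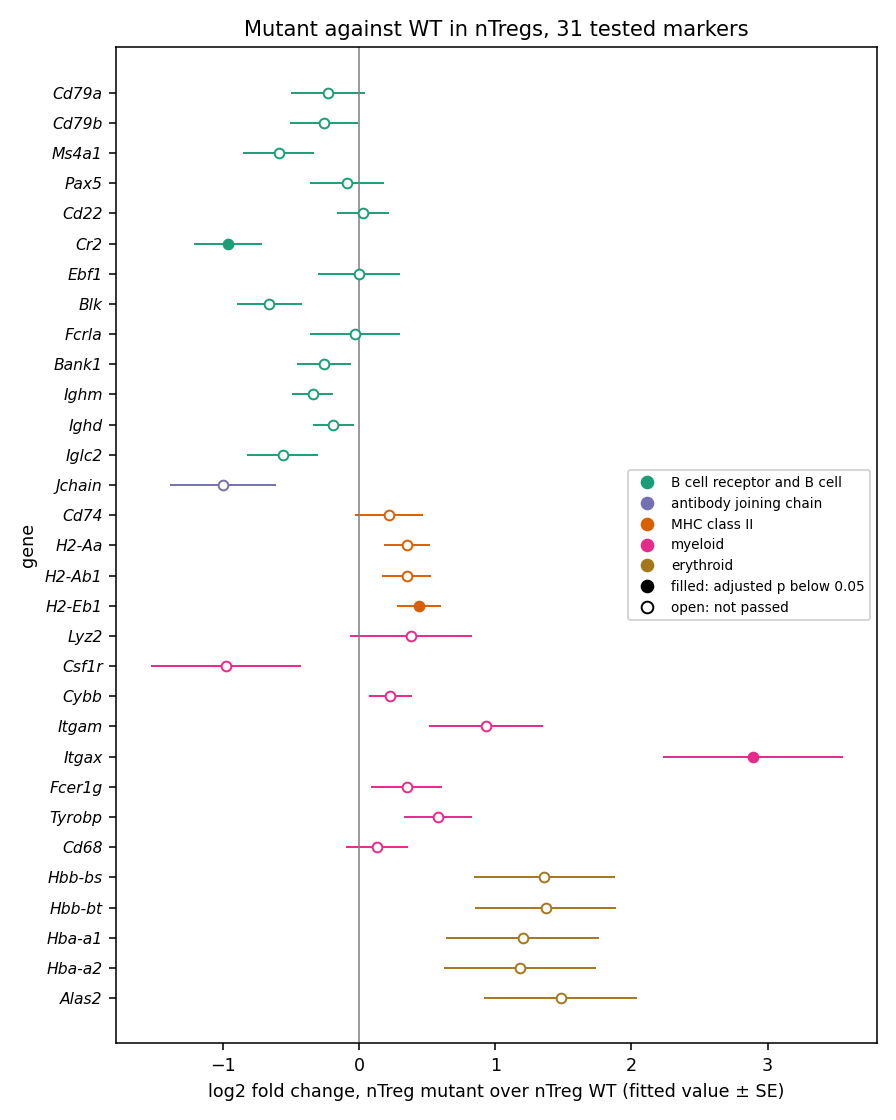
Fitted log2 fold change of nTreg mutant over nTreg WT (x axis, ± SE) for the 31 tested markers (rows), coloured by role; filled points had an adjusted p below 0.05. The filled points are Cr2 at -0.96, H2-Eb1 at 0.44 and Itgax at 2.89, while the erythroid points sit between 1.18 and 1.48 with wide errors and are open.

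The spread of the B cell genes among the mutant libraries was wide and shared. nTreg mutant replicate 1 was the lowest of the 6 nTreg libraries for 12 of the 13, and nTreg mutant replicate 2 was the highest for 5 and nTreg WT replicate 3 for 7. Their summed level was 1026.6, 1733.0 and 1268.3 CPM in nTreg mutant and 1653.7, 1608.7 and 1823.8 CPM in nTreg WT. With nTreg mutant replicate 2 left out, 7 of the 13 were called lower in nTreg mutant, beside 15.9% of all genes tested in that fit, and the median log2 fold change was -0.57, so the count of lower B cell genes rests on that library. With replicate 1 left out, Cr2 was again the only B cell gene called, and the median was -0.07.

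Set against Pax5 in the same library, several B cell transcripts were steady and others were not. Cr2 had 0.528, 0.546 and 0.655 counts per Pax5 count in nTreg mutant replicates 1, 2 and 4 and 1.11, 1.12 and 0.969 in nTreg WT replicates 1, 2 and 3. Blk had 0.378, 0.372 and 0.373 per Pax5 count in nTreg mutant and 0.596, 0.582 and 0.509 in nTreg WT. For both genes the mutant libraries, which differed widely in Pax5 itself, lay close to each other on this scale and below all WT libraries. Ms4a1 (1.34, 1.18 and 1.38 against 1.87, 1.85 and 1.70) and Iglc2 (0.504, 0.474 and 0.447 against 0.817, 0.609 and 0.598) were also lower per Pax5 count in every nTreg mutant library. Cd79a, Cd79b, Fcrla and Ebf1 overlapped between the genotypes. Cd22 was at 2.0 counts per Pax5 count in nTreg mutant replicate 1 and at 0.909 to 1.21 in the other 5 libraries. Pax5 was taken as the divisor after the values were seen, and the ratios are a description without a test.

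**Figure D4:**
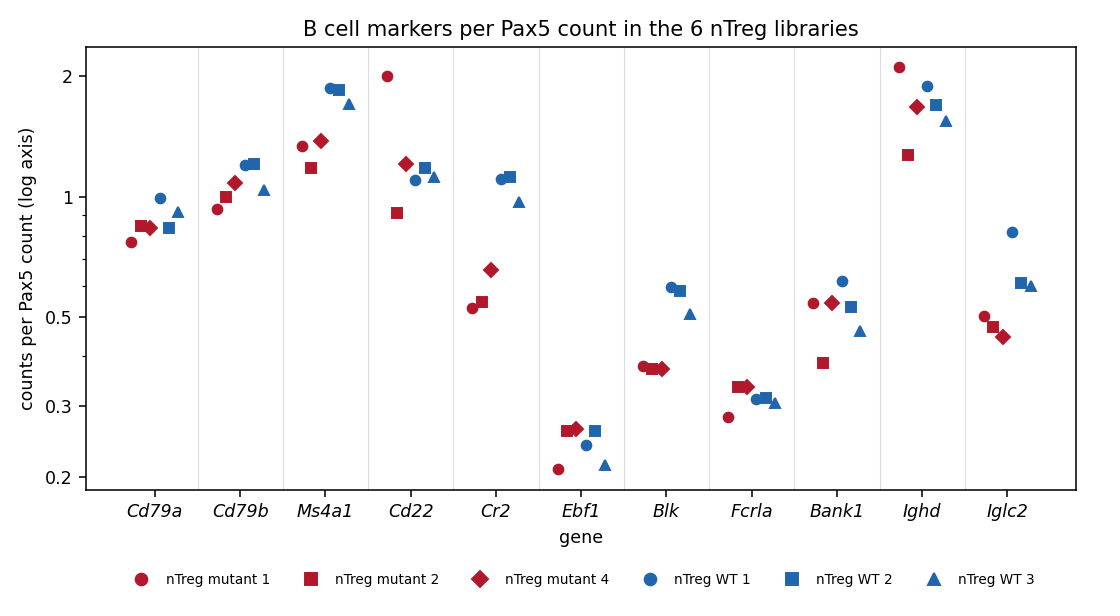
Counts of 11 B cell markers per Pax5 count (log axis) in the 6 nTreg libraries, 1 point per library, with marker shape giving the replicate number. For Cr2 the 3 nTreg mutant points lie between 0.528 and 0.655 and the 3 nTreg WT points between 0.969 and 1.12, while Fcrla and Ebf1 overlap.

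Other B cell genes, 23 that are no members, followed the same contrast: 21 of them were higher and 1 lower in nTregs than in iTregs, in each genotype. Over all tested genes 35.0% were higher and 33.2% lower in the mutants, and 35.7% and 33.7% in WT. Of the 23, 10 were below 1 CPM in every iTreg library. For such genes the calls describe the contrast and are no support for it. Igkc, the kappa light chain constant gene, was at 106, 290.0 and 143 CPM in nTreg mutant and 343, 235 and 241 CPM in nTreg WT. Between genotypes in nTregs, 2 of the 23 were higher and 2 lower in the mutant, beside 19.3% and 15.6% of all tested genes. Without nTreg mutant replicate 2 the counts were 1 and 10, beside 17.6% and 15.9% of all genes tested in that fit. H2-Ob, which encodes a chain of the B cell class II editor H2-O, was lower in nTreg mutant, at 34.1, 61.8 and 60.8 CPM against 84.6, 90.9 and 110 CPM in nTreg WT (log2 -0.86 ± 0.20, adjusted p = 0.005764).

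Jchain, the joining chain of secreted IgM and IgA and a product of antibody-secreting cells, was the most variable of the antibody genes. It was at 11.7, 45.9 and 17.6 CPM in nTreg mutant replicates 1, 2 and 4 and at 73.2, 39.4 and 38.3 CPM in nTreg WT replicates 1, 2 and 3, with 0 to 0.0599 CPM in iTregs. nTreg mutant replicate 2 lay within the WT range, and the groups overlapped. The log2 fold change of nTreg mutant over nTreg WT was -1.0 ± 0.39 (adjusted p = 0.06523), which did not pass; without replicate 2 it was -1.80 (adjusted p = 0.000853). Per Pax5 count, Jchain was at 0.373, 0.653 and 0.427 in nTreg mutant and 1.91, 0.804 and 0.591 in nTreg WT. Of the 6 plasma cell genes tested beside it, 1 was lower and none higher in nTreg mutant, beside 15.6% and 19.3% of all tested genes.

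Of the MHC class II genes, H2-Eb1 was higher in the nTreg mutants, and Cd74 kept a level of its own in the cultures. H2-Aa, an alpha chain of the class II molecule, was at 122, 144 and 140 CPM in nTreg mutant replicates 1, 2 and 4 and at 89.0, 103 and 126 CPM in nTreg WT replicates 1, 2 and 3, with 0 to 0.353 CPM in iTreg mutant and 0.0270 to 0.0299 CPM in iTreg WT. Its partner H2-Ab1 was at 44.0 to 57.0 CPM in nTreg mutant and 32.7 to 51.9 CPM in nTreg WT, with 0 to 0.206 CPM in iTregs. The beta chain gene H2-Eb1 was at 73.9, 84.2 and 82.8 CPM in nTreg mutant and 50.4, 56.9 and 70.4 CPM in nTreg WT. All mutant libraries were above all WT libraries for H2-Eb1, whose log2 fold change was 0.44 ± 0.16 (adjusted p = 0.04578). The call was lost without nTreg mutant replicate 2 (0.38, adjusted p = 0.118) or replicate 4 (0.39, 0.11), without nTreg WT replicate 1 (0.33, 0.179) or replicate 2 (0.41, 0.132), and without iTreg mutant replicate 1 (0.44, 0.0579) or iTreg WT replicate 2 (0.44, 0.0652). H2-Aa (0.35 ± 0.17, adjusted p = 0.1197), H2-Ab1 (0.35 ± 0.18, adjusted p = 0.1591) and Cd74 (0.22 ± 0.25, adjusted p = 0.5109) did not pass. So 1 of the 4 was called, beside 34.9% of all tested genes, and the median of the 4 was 0.35.

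The promoters of H2-Aa and H2-Eb1 are shown because they carry the X and Y boxes, the elements through which class II genes are switched on together in antigen-presenting cells. The 250 bases before the RefSeq start of each gene are given 5′ to 3′ on the gene's strand (GRCm38.p6), at chr17:34287824-34288073 on the minus strand for H2-Aa and chr17:34305617-34305866 on the plus strand for H2-Eb1. Capitals mark the X box, searched as CTNGCAAC, and the Y box, searched as CTGATTGG.
H2-Aa: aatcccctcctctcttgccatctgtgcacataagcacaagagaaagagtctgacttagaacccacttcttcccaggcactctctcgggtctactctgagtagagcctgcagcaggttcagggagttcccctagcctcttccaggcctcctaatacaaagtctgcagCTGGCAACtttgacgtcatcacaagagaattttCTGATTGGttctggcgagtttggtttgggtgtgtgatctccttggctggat
H2-Eb1: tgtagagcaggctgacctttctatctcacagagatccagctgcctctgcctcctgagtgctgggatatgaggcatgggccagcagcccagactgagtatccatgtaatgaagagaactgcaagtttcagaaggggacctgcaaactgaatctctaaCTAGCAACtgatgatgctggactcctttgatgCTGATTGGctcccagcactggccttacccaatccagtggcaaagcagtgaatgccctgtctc
The X box began at position -84 of H2-Aa and -94 of H2-Eb1, and the Y box at -51 and -62, counted from the start site. In windows of 300 bases, of which 50 lie after the start, and on both strands, the X box letters were found in 3.42% of 32851 mouse promoters, the Y box letters in 4.1% and both in 0.18%. Of the 32 markers, 21 had a promoter in the RefSeq table, and H2-Aa and H2-Eb1 were the members with both boxes. A match of letters is a description and not a site.

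Cd74, the invariant chain that chaperones class II molecules, behaved differently from the chains it serves. It was at 265, 361 and 317 CPM in nTreg mutant and 238, 258 and 311 CPM in nTreg WT, and still at 51.1, 34.9 and 76.0 CPM in iTreg mutant and 18, 21.5 and 32.6 CPM in iTreg WT. The nTreg level was 5.90-fold higher in the mutants and 11.1-fold higher in WT (log2 2.54 ± 0.26 and 3.48 ± 0.28; adjusted p = 3.466e-06 and 3.145e-07). H2-Aa was 844-fold higher in nTreg mutant than in iTreg mutant, and 3744.7-fold higher in nTreg WT than in iTreg WT (counting interval 1281 to 18161.6). Per H2-Aa count there were 2.34 and 2.53 counts of Cd74 in nTreg mutant and nTreg WT, and 335 and 853 in iTreg mutant and iTreg WT. H2-Eb1 also kept a measurable level in culture, 1.29 to 2.28 CPM in iTreg mutant and 0.718 to 1.35 CPM in iTreg WT.

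The 9 myeloid genes did not move as a group. Their summed level was 142, 130 and 127 CPM in nTreg mutant and 89.0, 98.4 and 95.8 CPM in nTreg WT, against 6.15, 6.65 and 5.95 CPM in iTreg mutant and 10.4, 10.3 and 9.03 CPM in iTreg WT, but Cybb and Itgax supplied more of each nTreg sum than the other 7 genes together. Cybb, the catalytic subunit of the phagocyte NADPH oxidase that B cells also express, was at 48.0, 65.7 and 63.6 CPM in nTreg mutant and 44.2, 53.0 and 53.4 CPM in nTreg WT, with at most 0.182 CPM in iTregs. Csf1r and Cd14, which are tied to monocytes and macrophages, were low, while Lyz2 ran from 4.80 to 33.4 CPM in nTregs. Csf1r, the receptor for macrophage colony-stimulating factor, was at 0.474, 7.07 and 5.38 CPM in nTreg mutant and 8.96, 8.76 and 8.15 CPM in nTreg WT, and Cd14 was at 0.0316, 0.0913 and 0 CPM in nTreg mutant and 0.373, 0.202 and 0.217 CPM in nTreg WT. Cd14 therefore stayed below 1 CPM in every library and was not tested.

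**Figure D5:**
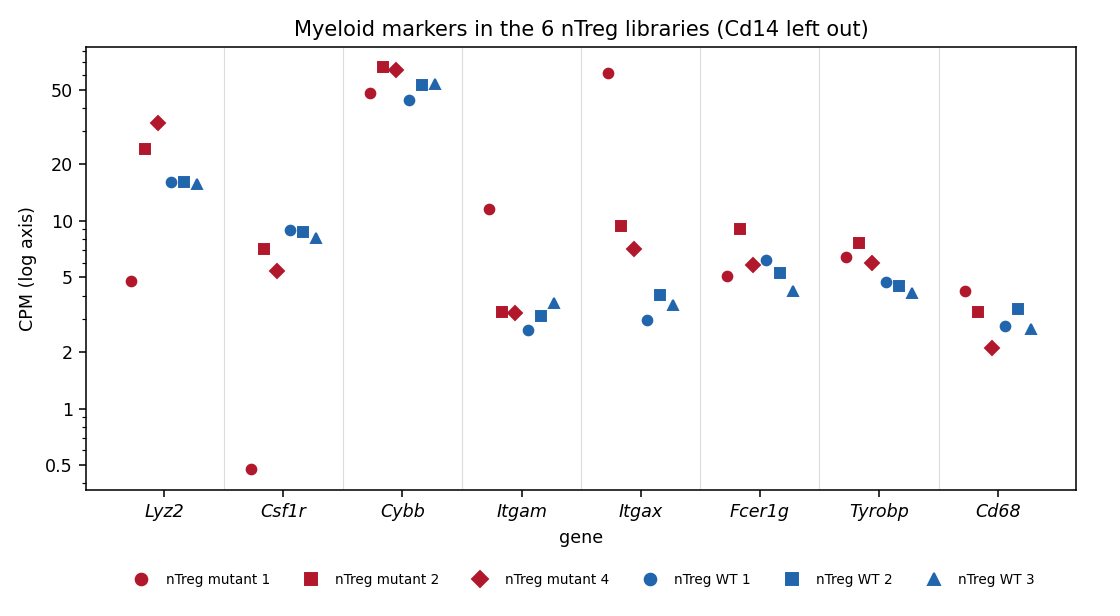
CPM (log axis) of 8 myeloid markers in the 6 nTreg libraries, 1 point per library, with marker shape giving the replicate number. nTreg mutant replicate 1 (red circle) is the lowest for Lyz2 at 4.80 and Csf1r at 0.474 CPM and the highest for Itgax at 61.7, Itgam at 11.6 and Cd68 at 4.23 CPM.

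Among the myeloid surface integrins, Itgax, which encodes CD11c, was higher in the nTreg mutants. It is the neighbour of Itgam, which encodes CD11b: on the plus strand of GRCm38, Itgam (ENSMUSG00000030786) lies at chr7:128062640-128118491 and Itgax (ENSMUSG00000030789) at chr7:128129547-128150657. Itgax was at 61.7, 9.36 and 7.12 CPM in nTreg mutant replicates 1, 2 and 4 and at 2.95, 4.01 and 3.57 CPM in nTreg WT replicates 1, 2 and 3, with 0 to 0.147 CPM in iTregs. All mutant libraries were above all WT libraries, and the log2 fold change was 2.89 ± 0.66 (adjusted p = 0.005554). The size rests on replicate 1: without it the log2 fold change was 1.26 (adjusted p = 0.00155). Replicate 1 is the library with the high CD8 T and NK cell genes, and their part in the Itgax level was not tested. In the other 2 mutant libraries the CD8 T and NK cell sum was 157 and 139 CPM, also above WT.

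Itgam was the marker called in opposite directions between sorted and cultured cells in the 2 genotypes. It was at 11.6, 3.26 and 3.22 CPM in nTreg mutant and 2.61, 3.10 and 3.66 CPM in nTreg WT, against 2.32, 2.92 and 1.61 CPM in iTreg mutant and 7.69, 6.84 and 5.35 CPM in iTreg WT. It was higher in nTreg mutant than in iTreg mutant (log2 1.39 ± 0.43, adjusted p = 0.0125) and lower in nTreg WT than in iTreg WT (-1.08 ± 0.42, adjusted p = 0.03643). Without nTreg mutant replicate 1 the first of these was 0.59 (adjusted p = 0.0405), and without iTreg mutant replicate 4 the call was lost (1.18, adjusted p = 0.0525). The WT call passed in 15 of 20 alternatives and was lost without nTreg WT replicate 1 (-0.97, adjusted p = 0.106), replicate 2 (-1.08, 0.0827) or replicate 3 (-1.20, 0.0557) and without iTreg WT replicate 1 (-0.95, 0.0994) or replicate 2 (-1.06, 0.0738). Cd68, a lysosomal glycoprotein abundant in macrophages, lay at 2.10 to 4.23 CPM in nTregs and 2.42 to 3.64 CPM in iTregs, and passed in none of the comparisons (log2 -0.07 ± 0.22 in the mutants and 0.02 ± 0.23 in WT for nTregs over iTregs).

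The remaining myeloid genes were higher in the sorted cells of both genotypes. Lyz2, the lysozyme of macrophages and granulocytes, was at 4.80, 24.2 and 33.4 CPM in nTreg mutant and 16.2, 16.2 and 15.8 CPM in nTreg WT, with at most 0.0540 CPM in iTregs. The 3 WT libraries were nearly equal while the mutant libraries lay on both sides of them (log2 0.38 ± 0.45, adjusted p = 0.5422); without replicate 1, Lyz2 was higher in nTreg mutant (0.87, adjusted p = 0.00151). Tyrobp, the adaptor DAP12 of myeloid and NK cell receptors, was at 6.45, 7.62 and 5.96 CPM in nTreg mutant and 4.72, 4.51 and 4.15 CPM in nTreg WT (log2 0.58 ± 0.25, adjusted p = 0.09207). Fcer1g, the shared signalling chain of Fc receptors, was at 5.06, 9.01 and 5.81 CPM in nTreg mutant and 6.21, 5.25 and 4.22 CPM in nTreg WT (0.35 ± 0.26, adjusted p = 0.3194). Csf1r did not pass either (-0.98 ± 0.55, adjusted p = 0.1804), although every mutant library was below every WT library. Over all tested genes, 48.2% had groups that did not overlap in this comparison.

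Ratios between myeloid genes differed from library to library. Per Tyrobp count, Csf1r was at 0.0735, 0.928 and 0.903 in nTreg mutant replicates 1, 2 and 4 and at 1.90, 1.94 and 1.96 in nTreg WT replicates 1, 2 and 3. Itgax was at 9.57, 1.23 and 1.19 per Tyrobp count in nTreg mutant and 0.626, 0.888 and 0.858 in nTreg WT. The WT libraries were close to each other in both ratios, and nTreg mutant replicate 1 was far from the other 5. These ratios, too, were chosen after the values were seen. Of the other monocyte, macrophage and neutrophil genes, 14 of 23 were tested. In the mutants 13 of them were higher in nTregs than in iTregs, and in WT 14, beside 35.0% and 35.7% of all tested genes. Of the 23, 21 were below 1 CPM in every iTreg library, so these calls describe the contrast and are no support for it. Between genotypes in nTregs none of the 14 was higher and 1 was lower, beside 19.3% and 15.6% of all tested genes. Adgre1, the macrophage marker F4/80, was at 0.885, 3.74 and 2.19 CPM in nTreg mutant and 4.04, 4.35 and 3.88 CPM in nTreg WT.

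The 5 erythroid genes varied widely and together among the sorted cells and were nearly without counts in culture. The adult beta globin gene Hbb-bs was at 155, 242 and 47.6 CPM in nTreg mutant replicates 1, 2 and 4 and at 99.9, 41.4 and 31.9 CPM in nTreg WT replicates 1, 2 and 3; in iTregs it was at 0.0304 CPM in iTreg mutant replicate 4 and had no count in the other 5 libraries. Its copy Hbb-bt was at 138, 209 and 42.5 CPM in nTreg mutant and 87.8, 34.9 and 28.1 CPM in nTreg WT. The alpha globin gene Hba-a1 was at 99.2, 194 and 39.3 CPM in nTreg mutant and 90.1, 31.7 and 22.9 CPM in nTreg WT. Alas2, the erythroid enzyme that starts haem synthesis, was at 8.5, 11.2 and 2.16 CPM in nTreg mutant and 4.04, 2.29 and 1.55 CPM in nTreg WT. Mutant replicates 1 and 2 were above all WT libraries for each of these genes, and replicate 4 lay within the WT range. Hba-a2, the other alpha globin gene, ran from 26.3 to 223 CPM in nTregs. It was at least 4553.4-fold higher in nTreg mutant than in iTreg mutant, and Alas2 at least 252-fold higher in nTreg mutant and at least 91.0-fold higher in nTreg WT.

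None of the 5 passed between genotypes in nTregs. The log2 fold changes of nTreg mutant over nTreg WT were 1.36 ± 0.52 for Hbb-bs (adjusted p = 0.06488), 1.37 ± 0.52 for Hbb-bt (0.06209), 1.20 ± 0.56 for Hba-a1 (0.1177), 1.18 ± 0.56 for Hba-a2 (0.1238) and 1.48 ± 0.56 for Alas2 (0.06952), by edgeR. At an unadjusted p under 0.05 there were 3 of the 5, beside 8180 of all 17977 tested genes. DESeq2 called 0 of them, beside 36.0% of all tested genes. The result turned on single libraries: without nTreg mutant replicate 4 all 5 were called higher with a median of 1.76, beside 17.9% of all genes tested in that fit. Without nTreg WT replicate 1, 4 of the 5 were called higher with a median of 2.02, beside 13.5% of all genes. Without nTreg mutant replicate 2 none was called and the median was 0.79. The highest nTreg library exceeded the lowest by 7.21-fold to 8.48-fold over the 5 genes. Over the 6 nTreg libraries, Hba-a1 was at 0.639 to 0.901 counts per Hbb-bs count and at 11.7 to 22.3 counts per Alas2 count, so these ratios varied less than the levels did. The ratios between copies, 0.842 to 0.893 counts of Hbb-bt per Hbb-bs count and 1.15 to 1.18 counts of Hba-a2 per Hba-a1 count, are between near-identical genes whose shared reads were counted at both places.

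The globin copies cannot be told apart with confidence. Over coding sequences of 429 bases, Hba-a1 and Hba-a2 differ at 1 base (99.8% identical), and over 444 bases Hbb-bs and Hbb-bt also differ at 1 base, and reads mapping to several places were counted at each. With the copies added together, the log2 fold change of nTreg mutant over nTreg WT was 1.37 for the beta pair (adjusted p = 0.0646) and 1.19 for the alpha pair (adjusted p = 0.124). Upstream the beta globin copies differ, while the alpha globin copies share nearly the whole window. The 3 promoters printed are those of Hbb-bs, Hbb-bt and Hba-a1. The 250 bases before the RefSeq start (GRCm38.p6) lie at chr7:103827929-103828178 on the minus strand for Hbb-bs, chr7:103813924-103814173 on the minus strand for Hbb-bt and chr11:32283422-32283671 on the plus strand for Hba-a1. Capitals mark the boxes known from globin promoters: the CACCC box, the CCAAT box (which on the other strand reads ATTGG) and a TATA-like box searched as ATATAA.
Hbb-bs: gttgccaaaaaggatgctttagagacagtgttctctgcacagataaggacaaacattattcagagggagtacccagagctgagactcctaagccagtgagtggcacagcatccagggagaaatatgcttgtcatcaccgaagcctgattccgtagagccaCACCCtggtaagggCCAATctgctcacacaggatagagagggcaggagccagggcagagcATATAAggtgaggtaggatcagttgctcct
Hbb-bt: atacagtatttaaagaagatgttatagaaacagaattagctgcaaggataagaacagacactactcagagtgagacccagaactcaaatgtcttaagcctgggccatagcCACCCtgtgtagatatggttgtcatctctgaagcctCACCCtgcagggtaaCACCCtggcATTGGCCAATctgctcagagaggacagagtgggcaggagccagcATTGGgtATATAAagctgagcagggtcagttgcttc
Hba-a1: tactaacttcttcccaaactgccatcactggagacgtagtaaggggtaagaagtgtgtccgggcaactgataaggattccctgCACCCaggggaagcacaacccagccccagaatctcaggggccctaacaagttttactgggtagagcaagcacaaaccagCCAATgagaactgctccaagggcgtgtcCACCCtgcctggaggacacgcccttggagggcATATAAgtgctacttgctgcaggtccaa
The windows of the 2 alpha globin genes share a run of 297 of 300 bases, whereas the longest run shared by the beta globin windows is 14 bases. The CACCC box letters were found in 57.5% of all 32851 promoter windows, the CCAAT box in 37.4% and the TATA-like box in 9.82%; all 3 together were found in 1.84%, and among the matched members in the 4 globin genes. The reverse of CCAAT also lies inside the Y box of the class II promoters.

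Other erythroid and platelet genes gave a mixed picture. Of the 9 tested among 17, 6 were higher in nTreg mutant than in iTreg mutant, and 3 were higher and 1 lower in nTreg WT than in iTreg WT. Over all tested genes 35.0% were higher in the mutants, and 35.7% were higher and 33.7% lower in WT. Of the 17, 12 were below 1 CPM in every iTreg library. For such genes the calls describe the contrast and are no support for it. Between genotypes in nTregs, 4 were higher and none lower in the mutant, beside 19.3% and 15.6% of all tested genes. With single nTreg libraries left out 4 to 7 were higher, beside 13.5% to 18.3% of all genes tested in those fits. Gata1, the erythroid and megakaryocyte transcription factor, was at 12, 11.3 and 16.3 CPM in nTreg mutant and 17.6, 18.9 and 18.2 CPM in nTreg WT, and still at 2.67 to 14.0 CPM in iTregs, so it did not follow the globins. Car2, a carbonic anhydrase, was at 8.56, 15.1 and 6.14 CPM in nTreg mutant and 4.17, 4.61 and 4.06 CPM in nTreg WT (log2 1.22 ± 0.46, adjusted p = 0.05848); without nTreg mutant replicate 4 it passed (1.45, adjusted p = 0.0366).

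As a share of the summed level of 17 T cell and Treg identity genes in the same library, the B cell markers were at 17.4%, 27.7% and 19.2% in nTreg mutant and 21.2%, 21.9% and 24.4% in nTreg WT, against 0.953% to 1.13% in iTreg mutant and 1.28% to 1.45% in iTreg WT. The class II markers were at 8.58%, 10.3% and 8.94% in nTreg mutant and 5.24%, 6.18% and 7.48% in nTreg WT. On this scale the mutant libraries lay above the WT libraries for class II and for the myeloid markers (2.42%, 2.07% and 1.91% against 1.14%, 1.34% and 1.28%), but not for the B cell or the erythroid markers. The divisor itself moved: the identity sum was 5888.0, 6261.9 and 6620.1 CPM in nTreg mutant and 7818.4, 7359.0 and 7469.3 CPM in nTreg WT, with 6 of its 17 genes lower and 1 higher in the mutant (beside 15.6% and 19.3% of all tested genes), Foxp3 among the identity genes being at 135, 181 and 217 CPM against 610, 564 and 559 CPM. Its part in these shares was not tested. These are shares of CPM and not of cells.

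The CD8 T and NK cell genes moved with the genotype in nTregs. Of the 10, 8 were higher and none lower in nTreg mutant, beside 19.3% and 15.6% of all tested genes. Cd8a, the CD8 alpha chain, was at 219, 19.1 and 27.2 CPM in nTreg mutant and 3.70, 4.38 and 6.36 CPM in nTreg WT (log2 4.19 ± 0.78, adjusted p = 0.001888), and Nkg7, a granule protein of cytotoxic cells, at 191, 40.9 and 37.9 CPM against 14.5, 13.5 and 10.9 CPM (2.79 ± 0.51, adjusted p = 0.001776). Gzma, a granule protease, was at 220.0, 15.9 and 5.75 CPM against 3.29, 2.32 and 1.36 CPM (5.12 ± 1.32, adjusted p = 0.01713). Replicate 1 was far above the other mutant libraries for all 3, and these were again above WT. Without replicate 1, 5 of the 10 were higher and none lower, beside 18.3% and 11.2% of all genes tested in that fit, with Cd8a at 2.29 (adjusted p = 5.94e-05), Nkg7 at 1.64 (6.28e-05) and Gzma at 2.27 (0.00666). Without nTreg WT replicate 2 or replicate 3, 3 of the 10 were higher, beside 13.6% of all genes tested in each of those fits. Leaving out nTreg WT replicate 1, 2 or 3 left Gzma short of the threshold (adjusted p = 0.0545, 0.0621 and 0.0663). The dendritic cell genes overlap in function with the class II and Itgax markers. Of 11 tested, 6 were higher and none lower in nTreg mutant, beside 19.3% and 15.6% of all tested genes. With single nTreg libraries left out, 4 to 6 were higher and none lower, beside 13.5% to 18.3% of all genes called higher in those fits. Irf8 was at 58.7, 45.7 and 36.9 CPM against 32, 33.3 and 33.4 CPM (0.52 ± 0.13, adjusted p = 0.009101), and without nTreg mutant replicate 1 its log2 fold change was 0.36 (edgeR adjusted p = 0.0112). Ccr7 (0.12 ± 0.10, adjusted p = 0.379) and Bst2 (0.13 ± 0.14, 0.513) of the same list did not pass. The sum of the dendritic cell genes was 207 to 315 CPM in nTregs and higher in iTregs, at 512 to 649 CPM. Whether either set bears on the markers was not tested.

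Within the cultures, genotype comparisons rest on few members, since 24 of the 32 were below 1 CPM in every iTreg library. Over all tested genes 25.4% passed between iTreg mutant and iTreg WT, 14.0% as higher and 11.4% as lower. Of the 31 markers tested, 3 were higher and 2 lower in iTreg mutant. Cd74 was higher, at the values given above (log2 1.17 ± 0.26, adjusted p = 0.008374), with every iTreg mutant library above every iTreg WT library. H2-Eb1 was higher too, at 2.12, 1.29 and 2.28 CPM in iTreg mutant and 0.718, 1.17 and 1.35 CPM in iTreg WT (0.80 ± 0.26, adjusted p = 0.04069), although the groups overlapped. The H2-Eb1 call was lost without any 1 of iTreg mutant replicates 1 (adjusted p = 0.126) and 4 (0.129), iTreg WT replicates 1 (0.165) and 2 (0.0891), nTreg mutant replicate 4 (0.0525) and nTreg WT replicate 2 (0.0549). Tyrobp was called higher (adjusted p = 0.01778) on 12 counts over the 3 iTreg mutant libraries and 0 over the 3 iTreg WT libraries, which is 0.265 CPM at most. It passed the filter through the nTreg libraries, so this call is no support for a difference.

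Ighm and Itgam were the markers lower in iTreg mutant. Ighm was lower by a log2 fold change of -0.45 ± 0.15 (adjusted p = 0.04489), with 39.4 to 50.7 CPM in iTreg mutant and 58.6, 58.1 and 67.6 CPM in iTreg WT, and the groups did not overlap. The Ighm call was lost without any 1 of the 3 iTreg mutant, the 3 iTreg WT or the 3 nTreg WT libraries (adjusted p = 0.0537 to 0.135). Itgam was lower by -1.54 ± 0.43 (adjusted p = 0.02311), again without overlap. The Itgam call was lost without iTreg mutant replicate 1 (adjusted p = 0.0699) or 4 (0.0726) and without iTreg WT replicate 1 (0.082) or 2 (0.067). Cd79b (0.10 ± 0.35), Ighd (0.13 ± 0.21), Bank1 (0.63 ± 0.30) and Cd68 (0.22 ± 0.22) did not pass.

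The genotype effect was then compared between sorted and cultured cells through the interaction of genotype and cell source, in which 13.3% of all tested genes passed, 7.18% with a higher and 6.12% with a lower effect in nTregs. Of the 31 markers, Itgam was the 1 called: its mutant over WT log2 fold change was 0.93 ± 0.42 in nTregs (adjusted p = 0.1058) and -1.54 ± 0.43 in iTregs, a difference of 2.47 ± 0.61 (adjusted p = 0.02129). Without nTreg mutant replicate 1 the difference was 1.66 (adjusted p = 0.00483). Cd74, higher in iTreg mutant and not called in nTregs, had a difference of -0.94 ± 0.36 (adjusted p = 0.09899), which did not pass. H2-Eb1 (-0.36 ± 0.30, adjusted p = 0.4629), Ighm (0.11 ± 0.21, adjusted p = 0.7862) and Bank1 (-0.89 ± 0.36, adjusted p = 0.1156) did not pass either, so a differing effect of the mutation in the sorted and the cultured cells was not detectable for them.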

How the data were processed

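RNA was measured by stranded mRNA sequencing in 12 libraries. Per the file headers, the authors counted reads per gene with featureCounts 1.5.2 against Ensembl annotation of GRCm38 on the reverse strand, with reads that overlap several genes given to the largest overlap and multi-mapping reads counted at every place; the deposited values are raw counts. The submitters' processing notes name bcl2fastq 2.18.0.12, STAR 2.5.2b and Subread 1.5.2. Sharing of reads between copies can raise the globin and immunoglobulin counts.

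From these counts, CPM were computed on library sizes scaled by TMM. Genes were tested with edgeR 4.0.16 (R 4.3.3), a quasi-likelihood fit of all 12 libraries with 4 group means after its filter on low counts (17977 of 49671 genes, 8 residual degrees of freedom), with Benjamini-Hochberg adjustment over all tested genes and a threshold of 0.05. A fold is the ratio of summed counts over summed scaled library sizes; against a group without counts it is a lower bound at 3 counts over the group, and with 1 to 3 counts it has a 95% counting interval. Groups are those of the labels. Named are all 32 members, the 3 most abundant genes of each other list, Gclc, Foxp3, Cd3e and Cd4. The values of 1 gene named by this rule are not reported here. The members and lists were chosen with earlier results of these data known. Promoters are from RefSeq (GRCm38.p6). Alternatives were DESeq2 1.42.0, other scalings and filters, the compared libraries alone, a replicate block and each library left out. The steps were tested on simulated data. No deposited column was left out.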

Additional observations from a re-analysis of the deposited data

Results flagged for a closer look

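Itgam, the gene of the integrin chain CD11b, is listed here because its genotype effect differed between the sorted and the cultured cells by the interaction test. The mutant minus WT effect in nTregs minus that in iTregs was 2.47 on the log2 scale (SE 0.61, edgeR adjusted p = 0.02129). In nTregs it was at 11.6, 3.26 and 3.22 CPM in mutant replicates 1, 2 and 4 and at 2.61, 3.10 and 3.66 CPM in WT replicates 1, 2 and 3. The cultures had 2.32, 2.92 and 1.61 CPM in iTreg mutant and 7.69, 6.84 and 5.35 CPM in iTreg WT. The nTreg side rests on mutant replicate 1, without which the nTreg effect was 0.08 and the difference 1.66 (adjusted p = 0.00483). In iTregs the genotypes did not overlap. The call passed in 14 of 18 alternatives, and was lost without nTreg WT replicate 1 (adjusted p = 0.0596), nTreg WT replicate 2 (0.0563), iTreg mutant replicate 1 (0.051) or iTreg WT replicate 1 (0.0524).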

How the results depend on the processing

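No called result changed direction under any alternative run. The contrast of nTregs with iTregs kept 29 or 30 markers called with each library left out, beside 62.0% to 72.2% of all genes tested in those fits. Many markers passed the filter through the nTreg libraries alone, so this count is no support for the contrast. Between genotypes in nTregs the 3 called markers became 14 with no filter on low counts, 6 with DESeq2, and 2 to 10 with single libraries left out, while the 6269 called genes became 5889, 6480 and 4488 to 6554. In iTregs the 5 called markers, of 31 tested, became 8 with DESeq2 and 1 to 7 with libraries left out. With the compared libraries alone 3 were called, but only 10 markers passed the filter there, and 35.1% of 16150 tested genes were called. The 4561 called genes became 1770 to 6260 over the left-out libraries. For the difference of the genotype effects, the 1 called marker became 3 with no filter, 4 with DESeq2 and 0 to 4 with libraries left out, and the 2392 called genes became 1104 to 3216.

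The labels do not say whether replicate numbers pair the libraries. Same-numbered libraries had correlations of -0.06 to 0.05 in their deviations from group means, and differently numbered ones -0.09 to 0.09. With 3 libraries a group, such correlations cannot show whether libraries of the same number share an animal. With the number as a replicate block, 7 markers were called between genotypes in nTregs, beside 5006 of all tested genes (27.8%). In iTregs 2 markers were called, beside 3036 genes (16.9%), and 1471 genes (8.18%) were called in the difference.

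Under library size alone, the calls split otherwise: 7832 genes were higher and 4397 lower in nTreg mutant than in iTreg mutant, against 6293 and 5968 with TMM; 4161 and 2201 between genotypes in nTregs, against 3471 and 2798; 1606 and 2921 in iTregs, against 2517 and 2044; and 2393 and 518 in the difference, against 1291 and 1101. The filter at 1 CPM in 3 libraries gave 2041 and 2490 in iTregs and 1704 and 893 in the difference. Relative to TMM the median of all genes moved by 0.189 in the first and 0.135 in the last of the 4, and the mean myeloid sum of iTreg mutant was 5.81 CPM.

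Cr2 and Itgax between nTreg genotypes and Cd74 between iTreg genotypes passed in 19 of 19 alternatives. H2-Eb1 passed in 12 of 19 in nTregs, with adjusted p of 0.0204 to 0.179, and in 11 of 19 in iTregs, Ighm in 9 of 19 in iTregs and Blk in 4 of 19 in nTregs. Gene-level alternatives were limited to markers with a mean of 1 CPM in a compared group, a limit chosen after the data were seen. In iTregs, the 19 markers with at most 20 counts over the 6 libraries set the limit: for them a genotype difference could not be judged at this depth. Tyrobp was called among them on few counts. It passed the filter through the nTreg libraries, so its call is no support for a difference.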

Other observations

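Several genes outside the members varied among the sorted libraries. Of the 4 mast cell and basophil genes tested, 2 were higher in nTreg mutant and none lower, beside 19.3% and 15.6% of all tested genes. Cpa3, a mast cell carboxypeptidase, was at 0.506, 26.4 and 5.35 CPM in nTreg mutant replicates 1, 2 and 4 and at 1.80, 1.25 and 0.713 CPM in nTreg WT replicates 1, 2 and 3. The Cpa3 call (adjusted p = 0.0368) was lost without nTreg mutant replicate 2 (log2 1.21, adjusted p = 0.336) and without any 1 of nTreg WT replicates 1, 2 and 3 (0.0771, 0.0997 and 0.119), when none of 5 genes tested was called, and without iTreg WT replicate 2 (0.0503) or 3 (0.0577). nTreg mutant replicate 2, the highest of the mutants for Cpa3, was also the highest nTreg library for all 5 erythroid markers. Mcpt8, a basophil protease, was at 7.32, 1.13 and 0.273 CPM in iTreg mutant and 0.0599, 0 and 0.135 CPM in iTreg WT, and was not tested.

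The plasma cell genes gave a mixed contrast beside Jchain: of 6 tested, 3 were higher and 2 lower in nTreg mutant than in iTreg mutant, and 4 and 2 in the WT pair. Over all tested genes 35.0% were higher and 33.2% lower in the mutants, and 35.7% and 33.7% in WT. The summed level of the plasma cell genes was 255, 294 and 287 CPM in nTreg mutant and 273, 270.0 and 234 CPM in nTreg WT, against 801, 788 and 873 CPM in iTreg mutant and 666, 706 and 681 CPM in iTreg WT. Irf4, a transcription factor that activated T cells express as well, was the most abundant of them and was lower in nTregs than in iTregs (log2 -2.22 ± 0.13 in the mutants, edgeR adjusted p = 1.993e-08; -2.18 ± 0.13 in WT, 2.341e-08). Of the 5 stromal and endothelial genes tested, 2 were lower and none higher in nTreg mutant than in nTreg WT, beside 15.6% and 19.3% of all tested genes. Pecam1, which T cells also express, was lower by -0.54 ± 0.13 (adjusted p = 0.007303). Pdpn had no count in any nTreg library and was at 12.8 to 23.0 CPM in iTreg mutant and 5.96 to 9.81 CPM in iTreg WT (log2 1.31 ± 0.25, adjusted p = 0.008008).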
